A study of Mus musculus with 16 samples.

Results

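The receptors for hematopoietic growth factors were described as 9 genes named by symbol: Csf1r, Csf2ra, Csf2rb, Csf2rb2, Csf3r, Il3ra, Kit, Flt3 and Epor. All 9 were among the 13344 genes of the stroma table and 8 were among the 15080 genes of the tumor table, where Epor was not analysed here. All had a mean normalized count over 10 in their table, so none was lost to the filter on low values. RNA-sequencing was performed on cells sorted from the femurs and tibias of untreated C57BL/6J mice, 6 to 8 weeks old and of both sexes, 8 days after tail vein injection of 500000 B-ALL cells. Hosts were wild-type (WT) or IL-6 KO (Il-6-/-), and both received the same leukemia, a male Arf-/- line made with BCR-ABL and marked with mCherry from a retroviral vector. The 4 groups of 4 libraries were mCherry+ cells (tumor) of WT hosts, mCherry+ cells of IL-6 KO hosts, mCherry- cells (stroma) of WT hosts and mCherry- cells of IL-6 KO hosts. Stroma here means every live host marrow cell without mCherry after red cell lysis, which is mostly blood-forming cells and not mesenchymal stroma. The labels do not say that the libraries of a group came from separate mice, so p-values measure the spread between these libraries.

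These receptors fall into families that work in different ways. Csf1r, Kit and Flt3 are receptor tyrosine kinases that dimerize around their ligands M-CSF, stem cell factor and FLT3 ligand. The others have no kinase of their own and signal mainly through JAK2 and STAT proteins: Csf3r and Epor form homodimers for G-CSF and erythropoietin, while the GM-CSF and IL-3 receptors join a ligand-binding alpha chain (Csf2ra, Il3ra) to a beta chain. Mice carry a pair of beta chain genes, Csf2rb, which serves GM-CSF, IL-3 and IL-5, and Csf2rb2, a close copy that serves IL-3. In marrow, Kit and Flt3 mark stem and progenitor cells, Csf3r granulocytes and their precursors, Csf1r monocytes and macrophages, and Epor erythroid precursors.

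The targeted gene Il6 was not analysed here. The B lineage list (Cd79a, Cd79b, Pax5 and others) summed to between 149037 and 167268 normalized counts in tumor libraries and to between 639 and 1648 in stroma libraries, so the B cell label of the tumor sort held. In stroma the mesenchymal and endothelial genes Cxcl12, Lepr and Cdh5 were not analysed here, and the erythroid list summed to between 52759 and 223866. The noncoding RNA Rn7s1 took 3.40% to 6.24% of the values in tumor, 19.2% to 50.1% in WT stroma and 10.9% to 79.0% in IL-6 KO stroma. IL-6 KO stroma library 4 was the one at 10.9%, and CT010467.1 took 61.5% of its values. A read was worth an estimated 0.989 to 1.58 normalized counts in WT tumor and 0.604 to 1.32 in IL-6 KO tumor libraries. In stroma it was worth 0.399 to 0.895 in WT and 1.14 to 1.74 in IL-6 KO libraries, ranges that do not overlap. The value of 1 read thus differed with host genotype in stroma. It reflects how each library was scaled and is not its total depth. A value below 10 rests on few reads, and so do some higher values of IL-6 KO stroma. There a Kit value of 11.9 in library 1 was about 7 reads by this estimate. The value of 1 read was estimated from values repeated among genes. Only 1.92% to 2.74% of low values in stroma libraries lay near whole multiples of it, and 8.66% to 9.32% in tumor libraries. Numbers of reads are therefore rough. The tables were normalized separately and were tested apart. On GRCm38 the receptors not placed later lie at chr4:126024550-126044440 (Csf3r), chr14:14346275-14356011 (Il3ra) and chr5:75574916-75656722 (Kit), all on the plus strand, and at chr19:61223957-61228429 (Csf2ra), chr5:147330741-147400489 (Flt3) and chr9:21958897-21963506 (Epor), on the minus strand. All are protein-coding, and each range covers exons, introns and UTRs.

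Csf2rb and Csf2rb2 lie beside each other on chromosome 15 (GRCm38 chr15:78325752-78353847, plus strand, and chr15:78282507-78305721, minus strand). Their coding sequences, 2688 and 2634 bases long in GENCODE vM21, matched at 2503 of 2628 aligned bases (95.24%). The first 75 coding bases, the length of 1 read, are shown because a read of one gene differs so little from a read of the other. Capitals mark the bases that differ, which are 2 in this stretch and 2 in the median stretch of this length.
Csf2rb: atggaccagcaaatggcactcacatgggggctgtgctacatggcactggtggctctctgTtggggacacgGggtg
Csf2rb2: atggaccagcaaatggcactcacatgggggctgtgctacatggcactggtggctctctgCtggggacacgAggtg
The longest run of identical bases was 242, and 18.3% of aligned coding stretches of 75 bases had no difference. Over the whole transcripts, 518 of 4826 such stretches of Csf2rb (10.73%) occurred in Csf2rb2 as well. How the authors' counting divided those reads is uncertain, and the levels of this gene pair are therefore given also as a sum.

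Of the 8 receptors tested in leukemia cells, the 2 beta chains were higher in IL-6 KO hosts at an adjusted p under 0.05, where 19.8% of all 14493 genes differed by the same test. Csf2rb had 1443, 1280, 1217 and 1774 normalized counts in the WT tumor libraries and 1913, 3096, 1960 and 1985 in the IL-6 KO tumor libraries. Every IL-6 KO value was above every WT value, and IL-6 KO library 2 stood well above the other 3. The log2 fold change was 0.63 (SE 0.17, 95% interval 0.25 to 1.01, adjusted p = 0.0299, limma with Benjamini-Hochberg adjustment over 14493 genes). Csf2rb2 had 294, 259, 275 and 433 normalized counts in WT tumor and 475, 532, 453 and 504 in IL-6 KO tumor. Here too the groups did not overlap, and the IL-6 KO libraries lay close together. Its log2 fold change was 0.67 (SE 0.16, 95% interval 0.31 to 1.03, adjusted p = 0.0195, limma). Added together, both genes ran from 1492 to 2207 in WT tumor, with a mean of 1744 ± 327 (SD, n = 4). In IL-6 KO tumor the sum ran from 2388 to 3628, with a mean of 2729 ± 600 (SD, n = 4), and the hosts stayed apart. The Csf2rb call ended when the trend with GC content and transcript length was removed (log2 fold change 0.49, adjusted p = 0.0628, limma), and both calls depended on single libraries. Csf2rb had an adjusted p of 0.0527 without WT library 1 and 0.0535 without IL-6 KO library 4 (limma). Both genes passed the threshold no longer without WT library 2 (Csf2rb 0.0771, Csf2rb2 0.0511) or WT library 3 (0.0799 and 0.0557), and Csf2rb2 had an adjusted p of 0.0552 without IL-6 KO library 4.

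The ratio of Csf2rb to Csf2rb2 was not shown to differ between hosts. It was 4.90, 4.93, 4.42 and 4.09 in the WT tumor libraries and 4.02, 5.81, 4.32 and 3.93 in the IL-6 KO tumor libraries. These ranges overlapped, with geometric means of 4.57 and 4.46, and the difference of the mean log2 ratio was -0.03 (two-sided exact permutation test, p = 0.83, Benjamini-Hochberg 0.943 over 8 ratios). In stroma the same ratio ran from 0.439 to 3.94 in WT and from 0.659 to 4.24 in IL-6 KO libraries. The SD of the log2 ratio was 0.13 in WT and 0.26 in IL-6 KO tumor against 1.51 in WT and 1.11 in IL-6 KO stroma. Single genes varied more in stroma too, with a median residual SD on the log2 scale of 0.86 over all genes against 0.21 in tumor. The SD of the Csf2rb to Csf2ra log2 ratio also rose, from 0.79 and 0.27 in tumor to 1.68 and 1.93 in stroma (WT, IL-6 KO). The wider ratio in stroma is therefore not shown to be particular to this gene pair.

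**Figure D1:**
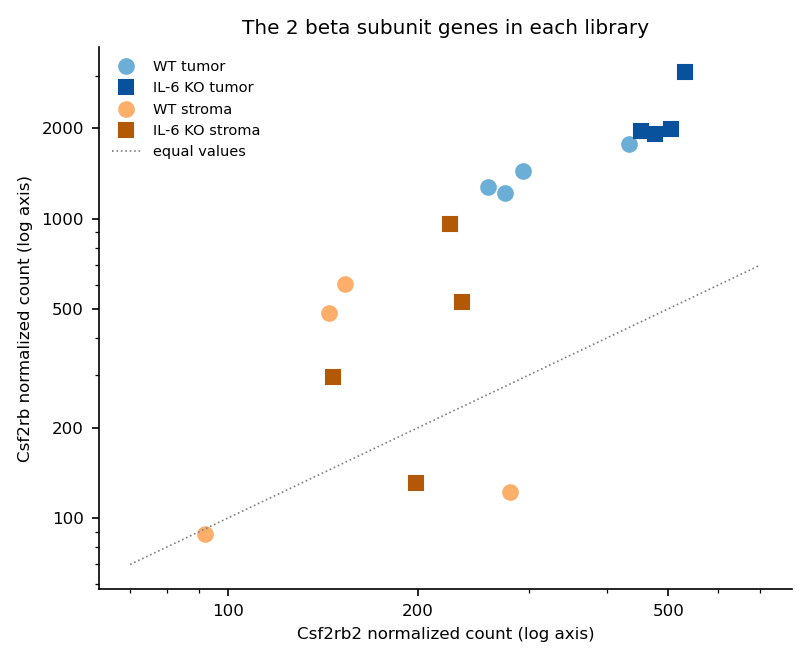
Normalized counts of Csf2rb (vertical, log axis) against Csf2rb2 (horizontal, log axis), 1 point per library, with colors and shapes for the 4 groups and a dotted line where both values are equal. The 8 tumor points lie along a band at 3.93 to 5.81 times as much Csf2rb, with the IL-6 KO tumor points farther along it, while stroma points fall on both sides of the dotted line.

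The alpha chains did not pass the test in tumor. Csf2ra, the GM-CSF binding chain, had 335, 763, 382 and 290 normalized counts in WT and 478, 800, 339 and 499 in IL-6 KO tumor. The ranges covered each other almost fully, with library 2 highest in both groups, and the log2 fold change was 0.30 (SE 0.32, 95% interval -0.42 to 1.02, adjusted p = 0.544, limma). Il3ra, the IL-3 binding chain, had 111, 35.8, 63.6 and 103 in WT and 84.3, 114, 62.7 and 77.9 in IL-6 KO tumor. The IL-6 KO values lay almost wholly inside the WT range, and the log2 fold change was 0.21 (SE 0.35, 95% interval -0.58 to 1.00, adjusted p = 0.716, limma). The ratio of Csf2rb to Csf2ra was 3.44 in WT and 4.34 in IL-6 KO tumor as geometric means and was not separated between the hosts (two-sided exact permutation test, p = 0.514, Benjamini-Hochberg 0.943).

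Csf3r had a log2 fold change above 1 in tumor and did not pass the test. The G-CSF receptor gene had 44.9, 10.3, 42.0 and 81.3 normalized counts in WT and 101, 135, 56.9 and 55.9 in IL-6 KO tumor. WT library 4 lay above 2 of the 4 IL-6 KO libraries, so the groups overlapped. The log2 fold change of 1.16 had an SE of 0.56 and a 95% interval of -0.09 to 2.40 (adjusted p = 0.169, limma). It ran from 0.59, without WT library 2, to 1.54 with 1 library left out. Csf1r, the M-CSF receptor gene, had 317, 129, 357 and 149 in WT and 627, 518, 142 and 266 in IL-6 KO tumor. IL-6 KO libraries 1 and 2 were above all WT libraries and the other two lay within the WT range (log2 fold change 0.62, SE 0.49, 95% interval -0.46 to 1.71, adjusted p = 0.394, limma). Csf1r (GRCm38 chr18:61100598-61132149, plus strand) overlaps Hmgxb3 on the opposite strand, and whether counting used strand is not given in the sources used here. The ratio of Csf3r to Csf1r was 0.170 in WT and 0.246 in IL-6 KO tumor (two-sided exact permutation test, p = 0.457, Benjamini-Hochberg 0.943).

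Markers of other marrow cells moved with host genotype in the same tumor libraries. Of 11 neutrophil genes, 9 were higher in IL-6 KO tumor and none lower at an adjusted p under 0.05 (limma). By the same test 10.6% of all 14493 tumor genes were higher. The summed level of the neutrophil genes was 4665 to 5239 normalized counts in WT and 7174 to 17628 in IL-6 KO libraries. All 5 granulocyte precursor genes (Elane, Mpo, Prtn3, Ctsg and Ms4a3) were higher, with sums of 282 to 426 in WT and 785 to 1679 in IL-6 KO. Of 14 monocyte and macrophage genes, 4 were higher, with sums of 2582 to 2887 and 3056 to 3736. No gene of these lists was at 0 in any tumor library. Their part in the Csf2rb, Csf2rb2, Csf3r and Csf1r values was not tested. Other marker lists did not move the same way. The stem and progenitor, megakaryocyte, and mesenchymal and endothelial lists each held 1 lower and 0 higher calls, of 3, 4 and 6 genes tested. The basophil, mast and eosinophil list held 1 higher call of 2, and the erythroid, dendritic, and T and NK lists held none. In bulk RNA, a change in the number of cells of a type and a change in RNA per cell cannot be told apart.

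The progenitor receptors Kit and Flt3 had low values in leukemia cells. Kit, the stem cell factor receptor gene, had 6.01, 95.3, 8.83 and 3.36 normalized counts in WT and 18.2, 26.4, 9.58 and 10.5 in IL-6 KO tumor. WT library 2 was far above the rest. The other 3 WT libraries held all the values under 9, each an estimated 3 to 9 reads. The log2 fold change was 0.28 (SE 0.87, 95% interval -1.66 to 2.23, adjusted p = 0.846, limma). Flt3 had 30.1, 28.5, 38.4 and 29.1 in WT and 40.9, 35.9, 38.1 and 15.5 in IL-6 KO tumor. The lowest and the highest Flt3 values were both in IL-6 KO libraries (log2 fold change -0.03, SE 0.34, 95% interval -0.79 to 0.72, adjusted p = 0.959, limma). The ratio of Kit to Flt3 was 0.404 in WT and 0.503 in IL-6 KO tumor (two-sided exact permutation test, p = 0.83, Benjamini-Hochberg 0.943).

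Counted over the family in tumor, 2 of 8 receptors passed an adjusted p of 0.05 (25%), where 19.8% of all 14493 genes did, and both were higher in IL-6 KO, where 10.6% of all genes were. Groups did not overlap for 2 of 8, where they did not for 25.6% of all genes. These shares are near the background and so are no result about the receptors as a family. The log2 fold change was above 0 for 7 of 8 receptors, where it was for 49.3% of all genes, with a median of 0.46 against -0.01. Every receptor also varied more between tumor libraries than a typical gene: the residual SD on the log2 scale was 0.25 for Csf2rb2 and 0.29 for Csf2rb, but 0.57 to 1.47 for Csf2ra, Il3ra, Csf1r, Csf3r and Kit and 0.47 for Flt3, beside a median of 0.21 over all genes. The interval for each receptor thus decides what can be read from its test.

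**Figure D2:**
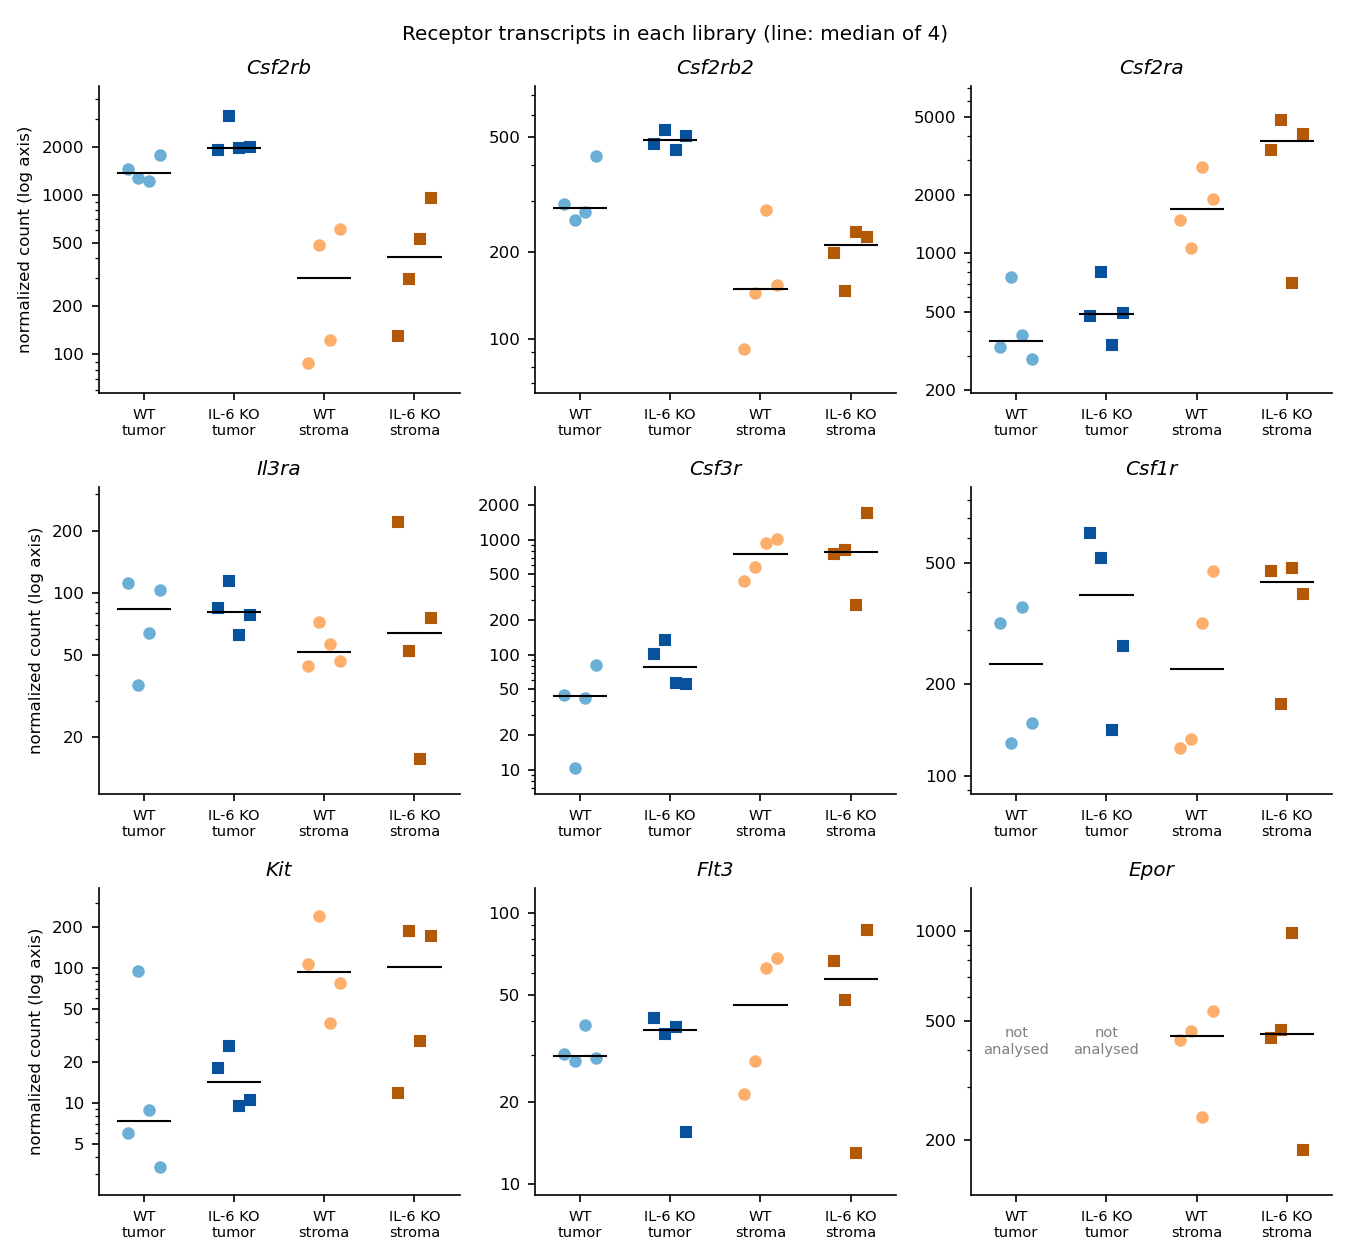
Normalized counts of each receptor in every library (points, log axis, 1 panel per gene) with the group median as a line. Tumor and stroma values come from separately normalized tables and are to be compared only within a compartment. In tumor the 4 IL-6 KO libraries are above all WT libraries for Csf2rb and Csf2rb2, and overlap them for the other 6 genes.

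In stroma, none of the 9 receptors differed between hosts by the same test, where 0.0082% of 12202 genes did (limma). At an unadjusted p under 0.05 there were again 0 of 9, where there were 9.15% of all genes, and for none did the groups fail to overlap, where 5.79% of all genes did. The log2 fold change was above 0 for 8 of 9, where it was for 49.4% of all genes, with a median of 0.18 against -0.01. Adjusted p-values ran from 0.711 for Csf1r to 0.988 for Csf3r. The intervals were wide, and for Kit the 95% interval ran from -2.56 to 1.20 on the log2 scale.

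The GM-CSF receptor chains varied among stroma libraries, where the residual SD on the log2 scale had a median of 0.86 over all genes. It was 0.99 for Csf2ra and 1.31 for Csf2rb. Csf2ra had 1484, 1068, 2756 and 1909 normalized counts in WT and 3385, 4798, 710 and 4104 in IL-6 KO stroma. IL-6 KO libraries 1, 2 and 4 were above all WT libraries and library 3 was below all of them (log2 fold change 0.63, SE 0.54, 95% interval -0.54 to 1.80, adjusted p = 0.745, limma). Csf2rb had 88.7, 483, 122 and 607 in WT and 131, 295, 525 and 959 in IL-6 KO stroma. The highest library was 6.84 times the lowest in WT and 7.34 times in IL-6 KO (log2 fold change 0.65, SE 0.70, 95% interval -0.87 to 2.17, adjusted p = 0.804, limma). Csf2rb2 had 92.0, 145, 280 and 153 in WT and 199, 147, 235 and 226 in IL-6 KO stroma and was the steadiest of the family there, with a residual SD of 0.51 (log2 fold change 0.36, SE 0.42, adjusted p = 0.823, limma). Il3ra had 44.2, 72.0, 56.2 and 46.9 in WT and 220, 51.9, 15.7 and 75.2 in IL-6 KO stroma, so both the highest and the lowest library were IL-6 KO (log2 fold change 0.18, SE 0.71, adjusted p = 0.963, limma).

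The granulocyte and monocyte receptors did not pass the test in stroma either. Csf3r had 440, 584, 934 and 1020 normalized counts in WT and 759, 807, 271 and 1715 in IL-6 KO stroma, with a log2 fold change of 0.06 (SE 0.50, 95% interval -1.03 to 1.14, limma). Library 3 of IL-6 KO stroma was again the lowest. That library also held the lowest neutrophil sum of its group, 7924 normalized counts where the other three held 26919 to 33062. The WT neutrophil sums were 7425 to 14186. Csf1r had 123, 132, 316 and 469 in WT and 469, 173, 481 and 394 in IL-6 KO stroma (log2 fold change 0.66, SE 0.50, 95% interval -0.43 to 1.76, limma). In contrast, IL-6 KO stroma library 3 held the highest Csf1r value of its group. The ratio of Csf3r to Csf1r was 3.16 in WT and 2.07 in IL-6 KO stroma (two-sided exact permutation test, p = 0.514, Benjamini-Hochberg 0.943).

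Epor, the erythropoietin receptor gene, had 431, 463, 239 and 541 normalized counts in WT and 438, 465, 983 and 185 in IL-6 KO stroma. IL-6 KO libraries 1 and 2 lay within the WT range, library 3 was above and library 4 below all of them (log2 fold change 0.13, SE 0.47, 95% interval -0.90 to 1.16, adjusted p = 0.958, limma). The erythroid marker sum (globins, Alas2 and others) was 223866 in library 3 and 52759 in library 4, the highest and the lowest of IL-6 KO stroma. All 11 tested erythroid genes had a log2 fold change below 0 in IL-6 KO stroma, none passed the test (limma), and none was at 0 in any stroma library. The part of erythroid content in the Epor values was not tested. Kit had 108, 242, 39.1 and 77.5 in WT and 11.9, 187, 28.9 and 174 in IL-6 KO stroma, with 2 low and 2 high libraries in the knockout group (log2 fold change -0.68, SE 0.87, adjusted p = 0.841, limma). Flt3 had 21.4, 28.4, 62.9 and 68.2 in WT and 66.2, 47.8, 13.01 and 86.5 in IL-6 KO stroma (log2 fold change 0.12, SE 0.71, adjusted p = 0.977, limma). The ratio of Kit to Flt3 was 2.31 in WT and 1.33 in IL-6 KO stroma (two-sided exact permutation test, p = 0.571, Benjamini-Hochberg 0.943).

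**Figure D3:**
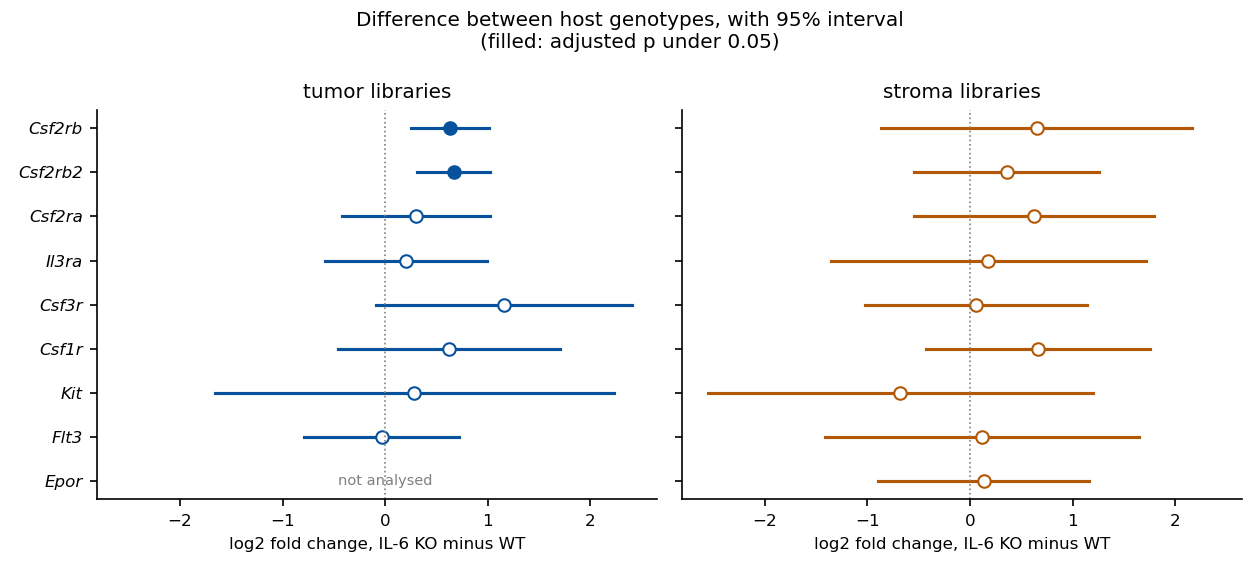
Log2 fold change of IL-6 KO minus WT hosts (horizontal) for each receptor, with its 95% interval from limma, in tumor libraries (left) and stroma libraries (right). Filled points mark the 2 receptors with an adjusted p under 0.05, Csf2rb and Csf2rb2 in tumor; all 9 stroma intervals include 0.

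Whether host genotype acted differently on a receptor in stroma and in tumor was tested as the difference of the log2 fold changes, stroma minus tumor, over 10887 genes in both tables. None of 8 receptors passed (0 at an unadjusted p under 0.05), where 0.00919% of all genes passed and 954 had an unadjusted p under 0.05 (limma with weights by compartment). The differences ran from -1.10 (SE 1.85) for Csf3r to 0.33 (SE 1.15) for Csf2ra. For Csf2rb the difference was 0.02 with an SE of 0.82, which leaves room for a large difference either way. Without the weights the SE was 0.85 for Csf3r, 0.72 for Csf2ra and 0.84 for Csf2rb, and again no receptor passed (limma). The call in tumor and its absence in stroma are therefore not shown to differ.

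The level of each receptor was set across the groups as log2 of its normalized count over the median of the genes shared by both tables, a description that carries no test. Csf2rb was the one receptor whose levels in leukemia cells lay among those in host marrow: 0.39 ± 0.23 in WT tumor and 1.00 ± 0.33 in IL-6 KO tumor against 1.26 ± 1.41 in WT stroma and 1.86 ± 1.21 in IL-6 KO stroma (SD, n = 4). Tumor and stroma values of Csf2rb overlapped in both hosts, and the sign of the difference depended on the reference, being -0.87 in WT hosts with the median and 0.30 with the sum of the shared genes without Rn7s1 and CT010467.1. Every other receptor measured in both compartments was lower in every tumor library than in every stroma library of the same host. Csf3r showed the widest gap, with tumor minus stroma differences of -7.69 in WT and -6.56 in IL-6 KO hosts, and the differences were -6.31 and -5.32 for Kit and -5.48 and -5.78 for Csf2ra. The differences were -3.47 and -3.49 for Csf1r, -3.79 and -3.91 for Flt3, -3.03 and -2.98 for Il3ra and -2.44 and -2.11 for Csf2rb2. With that sum as reference these separations held, except that Il3ra overlapped in IL-6 KO hosts.

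In the order of the 4 groups, IL-6 KO stroma was highest for 7 of the 8 receptors measured in both compartments and WT stroma for Kit, but these neighbours overlapped for every receptor. The neighbours that did not overlap were stroma and tumor, Csf2rb aside, and the tumor groups for Csf2rb and Csf2rb2. Compared between genes per kilobase of transcript, Csf2ra was the most abundant receptor in stroma, at a median percentile of 98.5 in WT and 99.4 in IL-6 KO libraries among protein-coding genes. Epor (93.4 and 92.8) and Csf3r (91.6 and 91.5) followed, and Flt3 was lowest in WT (29.5). In tumor Csf2rb was highest, at the 49.0 percentile in WT and 58.5 in IL-6 KO, then Csf2ra at 40.4 and 48.1, with Kit lowest at 1.82 and 4.36. Among stroma receptors the beta chain Csf2rb, at 63.2 and 74.5, stood far below its partner Csf2ra, the reverse of their order in tumor. The ratio of their normalized counts had geometric means of 0.140 and 0.143 in stroma, and the difference between hosts did not pass the test (two-sided exact permutation test, p = 0.943, Benjamini-Hochberg 0.943).

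**Figure D4:**
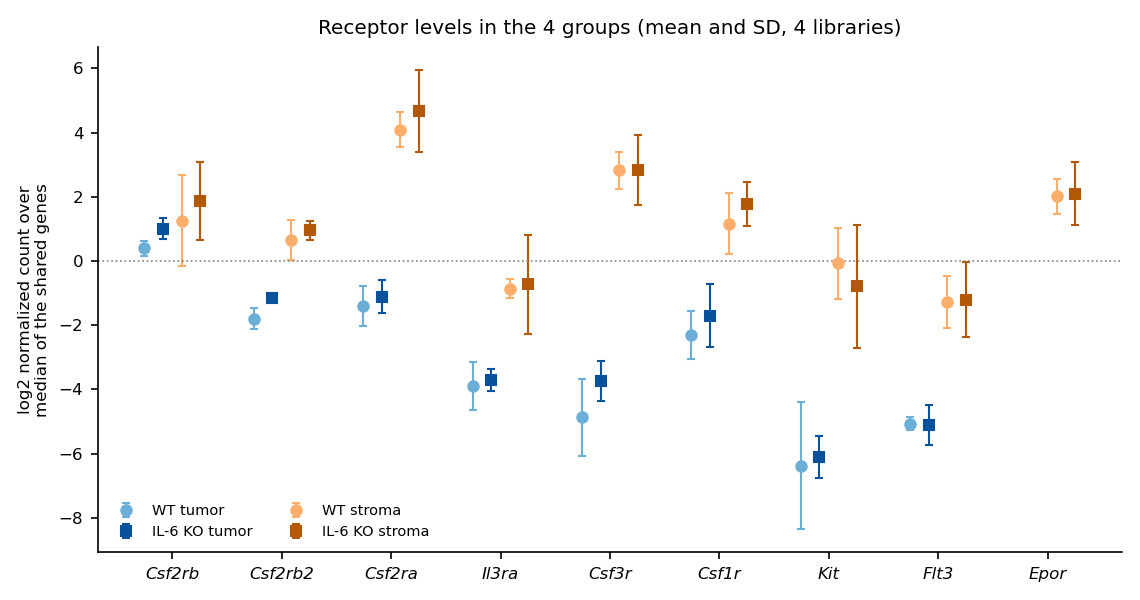
Mean level of each receptor in the 4 groups (points) with the SD over 4 libraries (bars), as log2 of the normalized count over the median of the genes shared by both tables; Epor was not analysed in tumor. Csf2rb is the gene whose tumor points lie beside its stroma points, and Csf3r, Kit and Csf2ra have gaps of over 5 on this scale in both hosts.

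Upstream sequence was read for 7 of 9 receptors from the RefSeq promoter table (GRCm38.p6). Csf2rb had no entry there, and Csf1r was left out by choice. Kit had 2 windows, of which 1 was read. The 250 bases before the annotated start are shown for one receptor of each kind that the results turn on: the called beta chain Csf2rb2, the alpha chain Csf2ra and the erythroid receptor Epor. Capitals mark matches, on either strand, to short motifs associated with marrow transcription factors: GAGGAA for PU.1, AGATAA for GATA factors, TTGCNNAA for C/EBP factors and TTCNNNGAA for STAT factors.
Csf2rb2 (chr15:78305722-78305971, minus strand): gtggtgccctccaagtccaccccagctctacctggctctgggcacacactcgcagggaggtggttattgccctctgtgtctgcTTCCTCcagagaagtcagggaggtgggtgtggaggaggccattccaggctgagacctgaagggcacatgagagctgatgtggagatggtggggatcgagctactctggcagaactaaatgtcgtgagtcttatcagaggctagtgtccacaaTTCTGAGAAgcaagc
Csf2ra (chr19:61228419-61228668, minus strand): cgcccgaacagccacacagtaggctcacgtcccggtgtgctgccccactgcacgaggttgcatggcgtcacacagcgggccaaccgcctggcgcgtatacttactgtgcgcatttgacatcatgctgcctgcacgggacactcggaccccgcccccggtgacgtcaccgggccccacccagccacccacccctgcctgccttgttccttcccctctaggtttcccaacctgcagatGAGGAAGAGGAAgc
Epor (chr9:21963577-21963826, minus strand): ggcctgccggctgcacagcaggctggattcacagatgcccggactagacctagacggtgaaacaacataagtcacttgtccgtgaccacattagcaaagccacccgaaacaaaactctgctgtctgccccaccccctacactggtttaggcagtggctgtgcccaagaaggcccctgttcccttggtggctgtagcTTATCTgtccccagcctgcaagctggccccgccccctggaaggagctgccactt
The Csf2rb2 window held 1 PU.1 and 1 STAT match, the Csf2ra window 2 PU.1 matches and the Epor window 1 GATA match. Csf3r and Kit held 1 PU.1 match each, Il3ra held 1 C/EBP match and Flt3 held none of the 4 motifs. Among 32851 windows of this length, 23.3% held the PU.1 motif, 9.99% the GATA motif, 9.56% the C/EBP motif and 7.02% the STAT motif, so single matches are common. The end of the Csf2ra window overlaps the start of the GENCODE gene model. The last of its 2 matches lies wholly within that overlap and the other only in part. Matches describe the sequence and are neither binding sites nor causes.

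Genes of the pathway around these receptors were read in the same fits, from lists written with earlier results of these data known. Of 17 proximal signaling genes tested in tumor, 5 were higher and 2 lower in IL-6 KO hosts (limma), where 19.8% of all tumor genes differed and 10.6% were higher. The median log2 fold change was 0.20 for this list, 0.22 for STAT5 targets, 0.03 for negative regulators and 0.27 for lineage transcription factors, against -0.01 over all genes. Ptpn11, a phosphatase that relays growth factor signals, rose by 0.38 on the log2 scale (SE 0.07, adjusted p = 0.00785), with 4759 to 5705 normalized counts in WT and 6551 to 7153 in IL-6 KO tumor. The kinase gene Tyk2 (0.30, adjusted p = 0.0215) and the adaptor gene Gab2 (0.32, adjusted p = 0.0218) rose as well, with no overlap of the hosts. The adaptor gene Grb2 fell by 0.44 (SE 0.08, adjusted p = 0.00678), from 3607 to 4258 in WT to 2651 to 3092 in IL-6 KO. Of 9 STAT5 targets, 2 were higher and none lower, a share near the 19.8% of all genes called: Socs2, a feedback inhibitor of cytokine receptors (0.44, adjusted p = 0.0192), and the kinase gene Pim1 (0.53, adjusted p = 0.0252). Socs2 was also the single call among 12 negative regulators. With each of the 8 libraries left out in turn, Ptpn11 and Grb2 kept an adjusted p under 0.05 in 8 of 8 fits, Socs2 in 6, lost without WT library 3 or IL-6 KO library 1, and Gab2 in 4, lost without WT libraries 3 and 4 or IL-6 KO libraries 3 and 4, each left out singly. Pim1 and Tyk2 kept it in 3 of 8, lost without WT library 2 or 3 or IL-6 KO library 1, 3 or 4 (highest adjusted p 0.0713 and 0.0699, limma). The ligand genes Csf1 (0.19, adjusted p = 0.529) and Flt3l (-0.17, adjusted p = 0.770) did not pass the test in tumor.

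Among 12 lineage transcription factors tested in tumor, 3 were higher and 1 lower, where 19.8% of all genes were called. Cebpa, a driver of granulocyte and monocyte development, had 9.87 to 22.4 normalized counts in WT and 52.3 to 98.4 in IL-6 KO tumor (log2 fold change 2.20, SE 0.31, adjusted p = 0.00263, limma). Cebpe, which acts later in granulocytes, had 7.24 to 29.2 in WT and 37.8 to 162 in IL-6 KO (log2 fold change 2.36, SE 0.53, adjusted p = 0.0145, limma). Both factors are expressed by the granulocyte precursors whose markers rose in the same libraries, and the part of those markers in these values was not tested. Irf8, a monocyte and B lineage factor, rose by 0.38 (adjusted p = 0.0115), and Myb, which maintains immature cells, fell by 0.23 (adjusted p = 0.0250, limma). Cebpa, Cebpe and Irf8 kept an adjusted p under 0.05 whichever library was left out, and Myb kept it in 3 of 8 such fits, lost without WT library 2, 3 or 4 or IL-6 KO library 1 or 4 (highest 0.0753, limma). In stroma no gene of any list passed the test (limma). The ligand gene Kitl had 37.0 to 90.5 normalized counts in WT and 5.73 to 31.4 in IL-6 KO stroma. Its log2 fold change was -1.56 (SE 0.70, adjusted p = 0.535, limma). The groups did not overlap for Kitl, nor for Pik3r1 and Cebpa, where they did not for 5.79% of all stroma genes. Of 52 genes of these lists tested in stroma, 11 had an unadjusted p under 0.05 (limma), 7 with higher and 4 with lower values in IL-6 KO, where 9.15% of all genes did. Among those with higher values were Nras, Dok2, Socs3, Inpp5d, Id1 and Cebpa, and those with lower values were Kitl, Pik3r1, Bcl2l1 and Tal1.

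Receptors were also set against each other across the 8 libraries of a table by Pearson's r of log2 values, a description over libraries that share depth, scaling and cell makeup. In tumor, Csf2rb and Csf2rb2 had r = 0.90, Csf2ra and Kit 0.89, and Csf3r and Il3ra 0.84. In stroma, Csf3r and Flt3 had r = 0.95 and Csf2ra and Flt3 0.84, while Epor ran opposite to Csf3r (r = -0.81). Over all genes with a mean of at least 50, those most like Csf2rb in tumor were Riox1, Gnl1 and Pak4 (r = 0.99, 0.99 and 0.98) and those most like Csf2rb2 were Cpox and Clstn1 (0.99 and 0.98). Epor in stroma was most like Slc25a38 and Ppox among the genes named here (0.96 and 0.94). Csf3r in stroma was most like Lrp5 (0.99). These are the highest values among many genes and say nothing of shared control.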

How the data were processed

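RNA of mCherry+ and mCherry- bone marrow cells was sequenced by the authors (rRNA-depleted, stranded libraries, single-end reads of 75 nt). Per the paper and the submitters' processing notes, reads were quantified with Salmon 1.3.0 on mm10 and normalized with DESeq2 1.28.1. The deposited values are a signal, DESeq2-normalized estimated counts, in 1 table per compartment. Whole reads could not be recovered, so edgeR and DESeq2 tests were not run and no counting interval was computed. The scaling of each library is known only through an estimated value of 1 read. The authors' own fold changes and p-values were deposited as well and were not used.

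Here log2(normalized count + 1) was the input to limma 3.58.1 (R 4.3.3), with a variance trend, on genes with a mean over 10, with genotype as the only term, two-sided, with Benjamini-Hochberg adjustment over all genes of a table and a threshold of 0.05. Fold changes are on that scale and so come out too small for low genes. The difference between compartments used limma with weights by compartment. Ratios of receptors were tested by exact permutation over 70 assignments, whose smallest p is 0.0286. The test was tried on simulated data first. Annotation and transcripts came from GENCODE vM21, in which 13338 of 13344 stroma and 15069 of 15080 tumor identifiers were found, and promoters from RefSeq. Transcripts were compared with BLAST 2.17.0 and coding sequences aligned with mafft 7.526. Python 3.11.15, pandas 2.3.3 and matplotlib 3.10.9 were used.

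The receptors and gene lists were chosen with earlier results of these data known. Besides the receptors, the text names up to 4 genes per pathway list and table with the smallest unadjusted p, genes most like a receptor across libraries, and cell type markers. A few genes chosen this way are not reported here. The alternatives tried were other pseudocounts, filters, scalings, array weights, a replicate block, removal of the trend with GC content and length, and each library left out in turn.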

Additional observations from a re-analysis of the deposited data

Results flagged for a closer look

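Of 34 combinations of a receptor and a group, 3 had a library whose gap to the nearest other library was above Dixon's 95% critical value, as a share of the group's range. Chance flags about 1 in 20 groups. Csf2rb in IL-6 KO tumor had its highest value, 3096 normalized counts, in library 2, where the other three libraries held 1913 to 1985; without that library the log2 fold change was 0.47 and the adjusted p 0.0278 (limma). Kit in WT tumor had its highest value, 95.3, in library 2, where the other three held 3.36 to 8.83. The same library held the highest Csf2ra value of its group, 763, and the lowest Csf3r and Il3ra values, 10.3 and 35.8. Flt3 in WT tumor had its highest value, 38.4, in library 3, where the other three held 28.5 to 30.1, a small gap in absolute terms.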

How the results depend on the processing

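The tumor result for Csf2rb and Csf2rb2 kept its direction under all 17 alternatives, with a call in 11 (Csf2rb, adjusted p 0.0222 to 0.0799) and 14 (Csf2rb2, 0.00480 to 0.0557) of them (limma). The replicate number as a block left 1 of 8 receptors called, since Csf2rb then had an adjusted p of 0.0539. The numbers share no label of litter or batch, and same-numbered libraries did not deviate together (correlations -0.02 to 0.00 in tumor and -0.03 to 0.13 in stroma), so the block is given only as a check. Removal of the trend with GC content and length also left 1 called (Csf2rb 0.0628); the cause was not tested. With 1 library left out, 0 to 2 receptors were called in tumor, none without WT library 2, WT library 3 or IL-6 KO library 4. In stroma 0 were called under every alternative, the one added after seeing the data included. That one left out IL-6 KO stroma libraries 3 and 4 and turned Csf2rb to -0.28.

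Some uncalled receptors changed sign. Csf1r and Csf2ra in both compartments, Csf3r in tumor and Csf2rb2 in stroma kept their sign under every alternative. GC and length removal turned Il3ra to -0.037 in tumor and -0.088 in stroma and Epor to -0.10, and quantile normalization turned Flt3 in tumor to 0.25. With 1 library left out, log2 fold changes in tumor ran from -0.12 to 0.41 for Il3ra, -0.24 to 1.25 for Kit and -0.17 to 0.28 for Flt3, and in stroma from -0.35 to 0.53 for Csf3r, -0.43 to 0.81 for Il3ra, -1.23 to 0.059 for Kit, -0.21 to 0.68 for Flt3 and -0.26 to 0.54 for Epor. Differences in the log2 ratio ran in tumor from -0.013 to 0.61 (Csf2rb to Csf2ra), -0.16 to 0.026 (Csf2rb to Csf2rb2) and -0.18 to 1.32 (Kit to Flt3), and in stroma from -0.77 to 0.65, -0.31 to 0.80 and -1.42 to 0.14 for the same ratios and -0.997 to 0.017 for Csf3r to Csf1r. Calls in tumor ran from 2 (without WT library 3 or IL-6 KO library 4) to 8 among proximal signaling genes, 0 (without WT library 3 or IL-6 KO library 1) to 2 among negative regulators, 0 (without IL-6 KO library 1) to 4 among STAT5 targets and 3 to 6 among lineage factors.

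Set against the sum of the shared genes without Rn7s1 and CT010467.1, the tumor minus stroma level (WT, IL-6 KO hosts) was 0.30 and 0.32 for Csf2rb, -2.30 and -2.31 for Csf1r, -4.31 and -4.61 for Csf2ra, -1.27 and -0.93 for Csf2rb2, -6.52 and -5.38 for Csf3r, -1.86 and -1.80 for Il3ra, -5.13 and -4.14 for Kit and -2.62 and -2.73 for Flt3. Over all genes, 1800 were called in tumor after GC and length removal, where 2870 were in the reported fit, and 1569 to 3327 with 1 library left out. In stroma 1 gene was called in the reported fit, 2 after GC and length removal, 4 with array weights and 1 to 3 with 1 library left out.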
